A study of Homo sapiens with 6 samples.

Results

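MT1X and MT1F are genes of metallothioneins, small cysteine-rich proteins that bind metal ions. They were taken as the rows of the array's value table whose annotated symbol is MT1X or MT1F. Each gene had 1 probe set (called a probe here), so the pair makes up 2 of 14884 genes with a named probe. The genes were chosen by their fall with FAC in these same arrays, where both belonged to the 275 genes called lower (1.85% of genes tested). Their levels and changes are therefore a description, given without a test. The other 9 measured metallothioneins and the metal-responsive transcription factor gene MTF1 were not chosen for their values and were tested.

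The cells were ARPE-19, a spontaneously arising human cell line from retinal pigment epithelium, brought to confluence and differentiated in low serum. All cultures then spent 2 days without serum, with vehicle in the 3 untreated samples and with 250 µM FAC in the 3 treated ones. FAC is the usual abbreviation of ferric ammonium citrate, a source of ferric iron. RNA of each sample went on 1 array. The labels do not say whether samples of a group came from separate cultures, so p-values measure the spread between these samples, which may be technical. Because RNA was taken from whole cultures of 1 line, fewer cells making a transcript and less transcript per cell cannot be told apart.

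Metallothioneins hold zinc and copper in clusters of metal and thiolate, and they also bind cadmium and other toxic metals. Their genes lie side by side on chromosome 16. Zinc switches on most of them through MTF1, a zinc-finger factor that binds short DNA sequences called metal response elements. Glucocorticoids, oxidants and low oxygen are further known inducers. In retinal pigment epithelium, metallothioneins are known as a store of zinc and as scavengers of radicals.

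The metal response element is a short motif with the core TGCNCNC. RefSeq promoter windows of GRCh38.p14, with 250 bases before the transcription start and 50 bases from it onward, were matched for 5 of the 11 measured metallothioneins (MT1X, MT2A, MT4, MT1B and MT1H). The windows below are those of MT1X, of MT2A, with a smaller measured difference, and of MT4, the 1 family gene that rose. They lie at chr16:56682220-56682519, chr16:56608334-56608633 and chr16:56564823-56565122, all on the plus strand, and read 5′ to 3′. Capitals mark each match to the core on either strand.
MT1X: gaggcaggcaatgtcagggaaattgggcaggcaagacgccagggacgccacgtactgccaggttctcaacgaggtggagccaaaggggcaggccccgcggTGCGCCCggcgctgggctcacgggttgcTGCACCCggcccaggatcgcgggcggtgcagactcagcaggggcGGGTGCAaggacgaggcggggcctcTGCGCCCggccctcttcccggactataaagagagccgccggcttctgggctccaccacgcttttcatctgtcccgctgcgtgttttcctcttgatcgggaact
MT2A: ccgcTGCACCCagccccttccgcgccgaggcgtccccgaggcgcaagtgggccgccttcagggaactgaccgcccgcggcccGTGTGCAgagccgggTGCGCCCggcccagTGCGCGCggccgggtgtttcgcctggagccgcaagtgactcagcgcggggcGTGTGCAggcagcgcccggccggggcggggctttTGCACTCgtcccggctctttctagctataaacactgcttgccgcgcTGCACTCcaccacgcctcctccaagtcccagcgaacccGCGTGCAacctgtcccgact
MT4: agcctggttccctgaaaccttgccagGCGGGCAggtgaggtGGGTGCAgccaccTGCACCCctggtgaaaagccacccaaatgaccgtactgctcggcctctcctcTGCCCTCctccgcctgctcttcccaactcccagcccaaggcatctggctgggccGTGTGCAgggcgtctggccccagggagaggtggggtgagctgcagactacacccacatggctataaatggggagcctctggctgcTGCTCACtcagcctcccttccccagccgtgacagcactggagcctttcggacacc
The MT1X window held 4 matches, which did not overlap each other, 3 on the strand of the gene and 1 on the opposite strand. Of 35116 windows of the same length, 55.9% held at least 1 match and 2.94% held 4 or more. MT2A held 8 matches, as did MT1H, MT4 held 6 and MT1B held 5. The match nearest to the start of MT1X ran from base -53 to base -47 counted from the start site. MT1B and MT1H had a match at the same place, and MT2A had one from -54 to -48. MT1X and MT4 both carried the core in this window, and any link between matches and measured changes was not tested. A match describes letters, not binding.

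MT1X was lower with FAC on every array. Its log2 intensity was 11.28, 11.56 and 11.45 on untreated arrays 1, 2 and 3, and 10.95, 10.68 and 10.65 on FAC arrays 1, 2 and 3. All untreated arrays lay above all FAC arrays, with a gap of 0.33 between the lowest untreated and the highest FAC value. The mean went from 11.43 ± 0.15 to 10.76 ± 0.17 (SD, n = 3 each), a difference of -0.67 ± 0.10 (SE), or 1.59-fold lower.

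MT1F showed a difference of like size. Its log2 intensity was 9.13, 9.08 and 9.07 on the untreated arrays and 8.62, 8.38 and 8.37 on the FAC arrays. The untreated arrays spanned only 0.06, the FAC arrays 0.26, and the gap between the groups was 0.45. The mean went from 9.09 ± 0.03 to 8.46 ± 0.15 (SD, n = 3 each), a difference of -0.64 ± 0.08 (SE), or 1.55-fold lower. FAC array 1 was the highest of the treated arrays for both genes. In all, 13% of the genes tested had every untreated array above every FAC array, and 23.4% had groups that did not overlap in either direction.

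**Figure D1:**
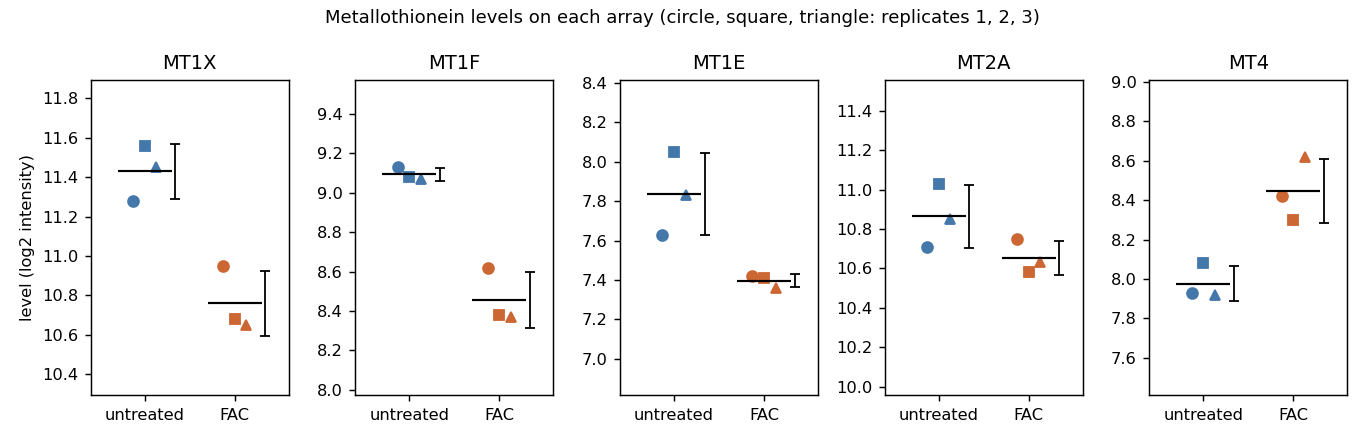
Log2 intensity (vertical axes of equal span) of MT1X, MT1F, MT1E, MT2A and MT4 on the 3 untreated and 3 FAC arrays, with points for arrays, a line for the group mean and a bar for the SD. MT1X, MT1F and MT1E lay lower on every FAC array, MT4 lay higher on every FAC array, and the groups of MT2A overlapped.

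Leaving out any 1 array kept MT1X between -0.77 and -0.60 and MT1F between -0.72 and -0.59. The distance between the 2 genes within an array varied among untreated arrays and was nearly constant among FAC arrays. MT1X minus MT1F was 2.15, 2.49 and 2.38 on the untreated arrays and 2.33, 2.30 and 2.28 on the FAC arrays. The means of 2.34 ± 0.18 and 2.30 ± 0.02 (SD, n = 3 each) differed by -0.04, less than the spread among the untreated arrays.

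Among untreated arrays, the values of MT1X ran closer to those of MT2A and MT1E than to those of MT1F. Its deviations from the untreated mean were -0.16, 0.13 and 0.02 on arrays 1, 2 and 3. Those of MT2A, known as an abundant metallothionein gene in many human tissues, were -0.15, 0.16 and -0.01. MT1E gave -0.21, 0.21 and 0.00, whereas MT1F stayed within 0.04 of its mean. MT4, MT1M and MT1G were, like MT1X, highest on untreated array 2, whereas MT3, MT1L, MT1B and MT1H were lowest on it. Among FAC arrays MT1X ran closest to MT1F, with deviations of 0.19, -0.08 and -0.11 for MT1X and 0.17, -0.08 and -0.09 for MT1F. MT2A had the same signs there, with 0.10, -0.08 and -0.02. Likeness over 3 arrays was not tested. Metallothionein transcripts resemble each other closely, so part of a signal can come from a paralog. Probe sequences were not used here, and the part of cross-hybridisation in these values was not tested.

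Of the 9 other measured metallothioneins, 1 rose, none fell, and 8 did not pass limma's test at an adjusted p under 0.05 (over all genes tested 3.73% passed). At an unadjusted p under 0.05, which 17.2% of all genes tested met, there were 2 lower and 1 higher. Their median change was 0.03, against 0.00 for all genes.

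MT1E, a widely expressed member of the MT1 group, came closest to the chosen pair. It measured 7.63, 8.05 and 7.83 on the untreated arrays and 7.42, 7.41 and 7.36 on the FAC arrays. The groups did not overlap, and the treated arrays spanned only 0.06 against 0.42 for the untreated ones. The difference of -0.44 ± 0.10 (SE) missed the threshold (limma adjusted p = 0.0565), with a 95% interval from -0.67 to -0.21. In 4 of 14 alternatives it passed, with adjusted p from 0.0152 to 0.167 over all 14, and in all of them it was negative. Without untreated replicate 1, the lowest untreated array, it measured -0.54 (limma adjusted p = 0.0281). MT1X minus MT1E was 3.65, 3.52 and 3.62 on untreated arrays and 3.53, 3.27 and 3.29 on FAC arrays, a mean difference of -0.23. Here FAC array 1 lay just above untreated array 2, so the groups overlapped.

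MT2A lay lower by less. It measured 10.71, 11.03 and 10.85 without FAC and 10.75, 10.58 and 10.63 with it, and the groups overlapped. The difference was -0.21 ± 0.09 (limma adjusted p = 0.278), with a 95% interval from -0.42 to -0.01. Relative to MT2A on the same array, however, MT1X was lower with FAC on every array. MT1X minus MT2A was 0.57, 0.54 and 0.60 on the untreated arrays and 0.20, 0.10 and 0.02 on the FAC arrays. Since MT1X was chosen on its fall, this distance is a description, and it shows unequal measured change of the 2 probes.

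**Figure D2:**
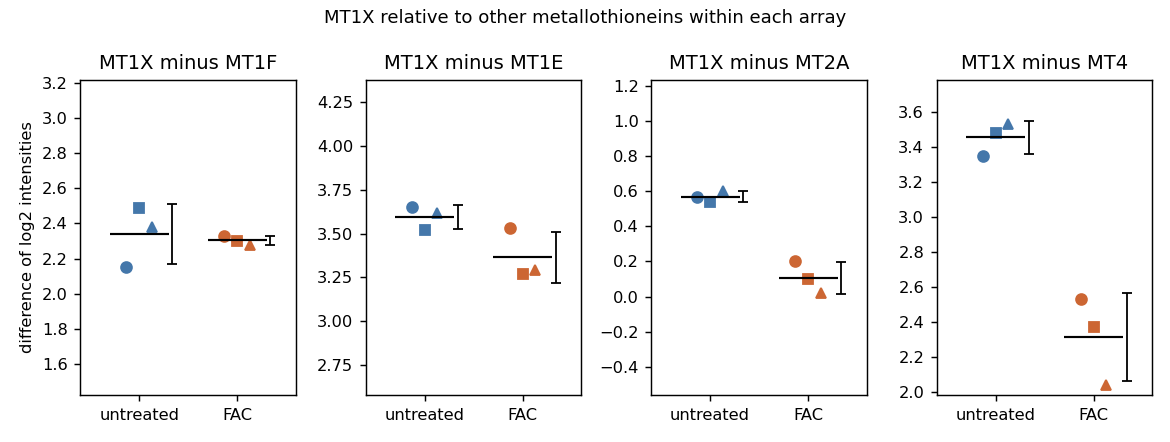
MT1X minus MT1F, MT1E, MT2A and MT4 within each array, as differences of log2 intensity (vertical axes), for the 3 untreated and 3 FAC arrays, with the group mean as a line and the SD as a bar. The distance to MT1F had means of 2.34 and 2.30, while that to MT2A went from 0.57 to 0.11 and that to MT4 from 3.45 to 2.31.

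MT4, a metallothionein known mainly from stratified squamous epithelium, went the other way. It measured 7.93, 8.08 and 7.92 on the untreated arrays and 8.42, 8.30 and 8.62 on the FAC arrays. Every FAC array lay above every untreated one, with a gap of 0.22. It rose from 7.98 ± 0.09 to 8.45 ± 0.16 (SD, n = 3 each), by 0.47 ± 0.09 (SE), 1.38-fold (limma adjusted p = 0.0314), with a 95% interval from 0.26 to 0.68. The call was lost in 6 of 14 alternatives, with adjusted p between 0.0044 and 0.118. It was lost without untreated array 1 (0.45, adjusted p = 0.0981), without untreated array 3 (0.44, adjusted p = 0.118), without FAC array 1 (0.48, adjusted p = 0.114) and without FAC array 3 (0.39, adjusted p = 0.0762). The other two were the replicate block and the test of every probe. MT4 stayed higher with FAC in all 14, between 0.39 and 0.54 without any 1 array.

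The remaining genes did not pass the test, and most were dim. MT3, a form known from brain, measured between 6.56 and 6.64 on untreated and between 6.53 and 6.71 on FAC arrays (0.04 ± 0.07, limma adjusted p = 0.791). MT1M measured between 5.25 and 5.43 on untreated and between 5.29 and 5.42 on FAC arrays (0.03 ± 0.07, limma adjusted p = 0.873). MT1M, MT1G, MT1H, MT1B and the pseudogene MT1L had mean levels between percentiles 5.0 and 17.9 of all genes by probe brightness, which is not RNA amount. The table holds no detection calls, so whether these probes stood above background was not tested.

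Besides MT1M, the 3 dim protein-coding genes among these gave 0.13 ± 0.17 for MT1G, -0.12 ± 0.22 for MT1H and 0.12 ± 0.13 for MT1B. Their 95% intervals all crossed 0. They ran from -0.25 to 0.51 for MT1G, from -0.62 to 0.38 for MT1H and from -0.16 to 0.41 for MT1B. MT1L gave -0.21 ± 0.13 (limma adjusted p = 0.454). Without 1 array MT1H lay anywhere between -0.35 and 0.11, and MT1G between -0.02 and 0.34. MT1A, MT1HL1 and the other metallothionein pseudogenes were not analysed here.

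**Figure D3:**
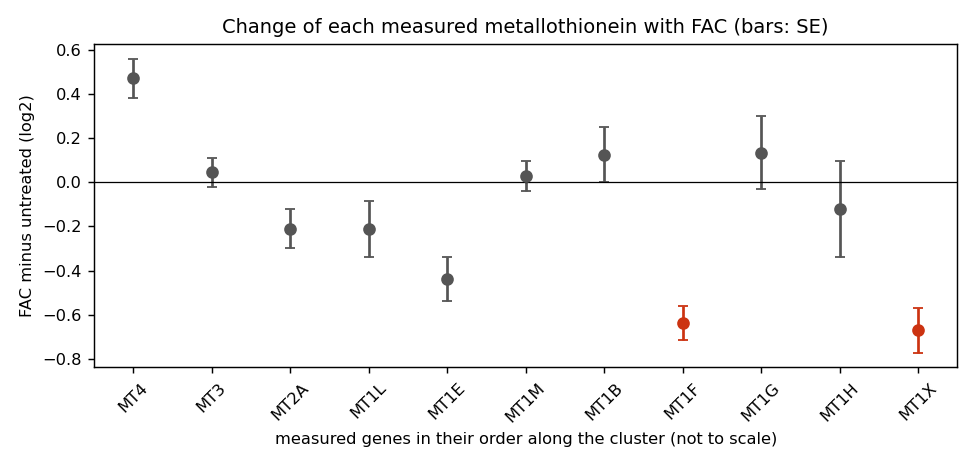
FAC minus untreated on the log2 scale (vertical axis, bars are SE) for the 11 measured metallothioneins in their order along the cluster, not drawn to scale, with MT1F and MT1X in red. MT1F and MT1X lay at -0.64 and -0.67 with MT1G (0.13) and MT1H (-0.12) between them, and MT4 at the other end lay at 0.47.

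In the RefSeq gene table the measured genes follow each other as MT4, MT3, MT2A, MT1L, MT1E, MT1M, MT1B, MT1F, MT1G, MT1H and MT1X. The genes with the most negative differences, MT1X, MT1F and MT1E, were not next to each other, and between MT1F and MT1X lay MT1G and MT1H. Of 4 measured genes that flank the cluster, none passed the test (over all genes tested 3.73% passed). None passed at an unadjusted p under 0.05 either (17.2% over all genes tested). The RNA processing gene NUDT21 measured 0.08 ± 0.05 (limma adjusted p = 0.503) and OGFOD1, which encodes a ribosomal prolyl hydroxylase, -0.08 ± 0.07 (limma adjusted p = 0.625).

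The regulator MTF1 itself measured between 8.98 and 9.05 on all 6 arrays. The groups overlapped, and the difference was -0.01 ± 0.05 (limma adjusted p = 0.928), with a 95% interval from -0.13 to 0.11. These values are of the MTF1 transcript, and the activity of its protein was not measured. Of the 3 measured genes in the list of MTF1 and its other targets, none passed (over all genes tested 3.73% passed). None did at an unadjusted p under 0.05 (17.2% over all genes tested). The angiogenic ligand gene PGF measured 0.15 ± 0.12 (limma adjusted p = 0.608) and the selenoprotein gene SELENOH -0.05 ± 0.06 (limma adjusted p = 0.734). The 24 listed zinc transporter genes of the SLC30 and SLC39 families, among them the classical MTF1 target SLC30A1, had no named probe and were not analysed here.

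Metallothioneins also bind copper, and none of 9 measured copper handling genes passed limma's test (over all genes tested 3.73% passed). At an unadjusted p under 0.05 there was 1 (17.2% over all genes tested), and the median change was -0.05. That 1 was CP, the gene of the copper-bearing ferroxidase ceruloplasmin, at -0.36 ± 0.14 (limma adjusted p = 0.248). Untreated replicate 2 decided its call, since without it CP measured -0.54 (limma adjusted p = 0.0166). HEPH, the membrane-bound relative of ceruloplasmin, measured -0.10 ± 0.07 (limma adjusted p = 0.475).

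Of 12 measured genes that glucocorticoids induce, 1 rose and none fell (over all genes tested 3.73% passed). At an unadjusted p under 0.05 there were 5 (17.2% over all genes tested), 2 of them higher and 3 lower. The median change was 0.00. CAVIN2, which encodes a protein of caveolae, rose by 0.55 ± 0.09 (limma adjusted p = 0.0197). KLF9, a transcription factor and direct target of the glucocorticoid receptor, measured -0.42 ± 0.10 (limma adjusted p = 0.0655), and FKBP5, the usual marker of this response, -0.02 ± 0.06 (limma adjusted p = 0.902). The others at an unadjusted p under 0.05 were CRISPLD2 (-0.52 ± 0.16, limma adjusted p = 0.143), SGK1 (-0.19 ± 0.06, limma adjusted p = 0.173) and MAOA (0.14 ± 0.05, limma adjusted p = 0.25). KLF9, FKBP5, CRISPLD2, SGK1 and MAOA were named after their values were seen. The CAVIN2 call was lost in 5 of 14 alternatives, among them without untreated replicate 3 (limma adjusted p = 0.0547), FAC replicate 1 (0.0892) or FAC replicate 2 (0.0649).

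Of 10 measured genes that answer to cadmium and other metal stress, 1 rose and 1 fell (over all genes tested 3.73% passed). Their median change was 0.05, and 3 had an unadjusted p under 0.05, against 17.2% of all genes tested. HMOX1, which degrades heme and like the metallothioneins is a classical cadmium-responsive gene, measured 0.42 ± 0.08 (limma adjusted p = 0.0265), opposite in sign to MT1X and MT1F. That call was lost in 7 of 14 alternatives, including without any 1 array other than untreated replicate 1, with adjusted p up to 0.104. The immediate early gene EGR1 fell by 0.43 (limma adjusted p = 0.0116), while its second probe measured -0.02, and the call was lost in 4 of 14 alternatives, among them without FAC replicate 2 (limma adjusted p = 0.0505) and with probes averaged (limma adjusted p = 0.108). The heat shock genes HSPA1A and HSPA1B, near-identical copies that arrays cannot separate, measured -0.01 ± 0.05 and 0.00 ± 0.05 (limma adjusted p = 0.95 and 0.99). Another heat shock gene of the list, HSPH1, measured 0.15 ± 0.06 (limma adjusted p = 0.246), with every FAC array above every untreated one. It was the remaining gene at an unadjusted p under 0.05. HSPA1A, HSPA1B and HSPH1, too, were named after their values were seen.

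**Figure D4:**
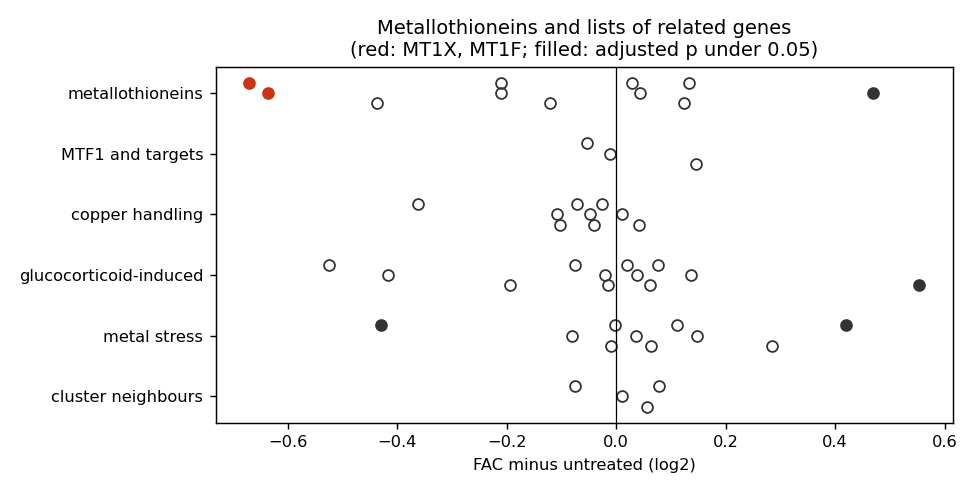
FAC minus untreated on the log2 scale (horizontal axis) for each measured gene, 1 point a gene, of the metallothioneins and of 5 lists of related genes, with MT1X and MT1F in red without a test and other filled points at an adjusted p under 0.05. MT1X (-0.67) and MT1F (-0.64) lay lowest of the genes drawn, and 4 other genes, MT4, CAVIN2, HMOX1 and EGR1, passed the test.

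By pattern over the 6 arrays, the genes most like MT1X were NEK10, CASC15, FBXL13, SPAG4 and FZD8, with root mean square differences of 0.06, 0.10, 0.10, 0.10 and 0.10 between log2 values centred on each gene's own mean. NEK10, a kinase gene, measured 7.75, 8.11 and 7.93 on untreated and 7.34, 7.22 and 7.22 on FAC arrays. MT1F came 7th of 14883 genes for MT1X, MT1E 39th, MT2A 320th and MT4 14754th. The genes most like MT1F were NOX4, BNIP3, NAMPT, ADGRG1 and FKBP7, with differences of 0.06 to 0.08. NOX4, an NADPH oxidase gene, measured 10.92, 10.87 and 10.88 on untreated and 10.38, 10.31 and 10.23 on FAC arrays. MT1X came 15th and MT1E 179th for MT1F. These places rest on the same arrays that chose the pair and carry no test.

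Over the series, array medians lay between 6.03 and 6.09, and array pairs correlated with r between 0.991 and 0.995 over all probes. Of 16 measured markers of retinal pigment epithelium, 1 fell and none rose (over all genes tested 3.73% passed). That 1 was the retinol dehydrogenase gene RDH10 (-0.39 ± 0.08, limma adjusted p = 0.043), whose call was lost in 7 of 14 alternatives, including without any 1 array other than untreated replicate 2. By probe brightness, which is not RNA amount, the 16 ran from percentile 22.6 for RPE65 to 99.0 for RDH10, with TYRP1 at 92.2 and MITF at 79.8. RPE65, BEST1 and LRAT, markers of the mature tissue, were the 3 in the dimmest 33.3% of genes. At an unadjusted p under 0.05 there were 3 of the 16 (17.2% over all genes tested), RDH10 and MITF lower and RLBP1 higher. MITF measured -0.15 ± 0.06 (limma adjusted p = 0.215) and RLBP1 0.31 ± 0.08 (limma adjusted p = 0.0843). The markers other than RDH10 were named after their values were seen. Of 7 measured markers of blood and endothelium, 4 lay in the dimmest 33.3% of genes, while the macrophage marker CD68 lay at percentile 98.5. Limma called 1 lower and none higher (3.73% of all genes tested were called), and 2 had an unadjusted p under 0.05 (17.2% over all genes tested). The called gene was the macrophage growth factor receptor gene CSF1R (-0.37 ± 0.07, limma adjusted p = 0.0365). Its call was lost in 8 of 14 alternatives, among them the same single-array removals as for RDH10. The other at an unadjusted p under 0.05 was KDR (-0.36 ± 0.14, limma adjusted p = 0.238). CD68 measured -0.12 ± 0.06 (limma adjusted p = 0.36). CD68 and KDR were named after their values were seen. The list of neural markers (neurons, glia, photoreceptors) had 7 measured genes, of which limma called none, with 4 at an unadjusted p under 0.05 (17.2% over all genes tested), 2 higher and 2 lower, among them SAG (0.27 ± 0.08, adjusted p = 0.118) and SYT1 (-0.21 ± 0.07, adjusted p = 0.174). The mean level of the blood and endothelial markers ran from 6.78 to 6.92 on untreated and from 6.71 to 6.80 on FAC arrays, and that of the neural ones from 6.68 to 6.76 and from 6.70 to 6.78. Their part in the metallothionein values was not tested.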

How the data were processed

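The authors deposited 1 value table of 53617 probes and 6 arrays, on the log2 scale as its range of 2.41 to 14.22 shows. The submitters' processing notes list RMA and Partek 6.6, with neither order nor role; the genome build is not given in the sources used here. The table holds no detection calls or scan dates. The platform annotation given with the series named 16098 probes with 1 symbol each, none with several, and 37519 stay unnamed. For the 779 genes with several probes the one with the highest mean was used.

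FAC and untreated arrays were compared over all 14884 genes with limma 3.58.1 in R 4.3.3 (lmFit, eBayes, 2-sided, Benjamini-Hochberg over all genes, threshold 0.05). Intervals are limma's at 95%. With 3 arrays a group, their number limits the precision. Only the limma fit was tried on simulated data, not the other steps. The members and lists were chosen with earlier results of these data known. Named were all metallothioneins, MTF1, up to 4 passing genes of each other list (or the 2 with the smallest p), and the 5 genes closest in pattern to each member; the report says where a gene outside this rule was named after its values were seen.

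Alternatives were other scalings, filters, variance priors, array weights, probe rules, single arrays left out, and a replicate block. Deviations of same-numbered arrays correlated at -0.02, -0.03 and -0.15, so the values showed no pairing by replicate number. Whether the cultures were handled in pairs cannot be read from these correlations. The RefSeq gene table served for gene order and for looking up current symbols by Entrez gene ID, which changed no symbol.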

Additional observations from a re-analysis of the deposited data

How the results depend on the processing

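MT1X stayed between -0.77 and -0.60 and MT1F between -0.72 and -0.59 in all 14 alternatives. The count of genes called (555, or 3.73% of genes tested) became 840 without the dimmest 33.3% of genes and 1026 with an intensity trend and robust prior. It was 254 when every probe of the table was tested (6547 at an unadjusted p under 0.05 by limma), and 147 to 447 without any 1 array. The count of other metallothioneins called (1, MT4) became 2, with MT1E added, when arrays were centred on their median, without those dim genes, and with the intensity trend. It was 0 when every probe was tested (2 at an unadjusted p under 0.05 by limma) and 0 to 1 without 1 array. Of 38 genes in the lists of related genes, 3 were called (3.73% of all genes tested were), against 0 when every probe was tested (6 unadjusted) and 0 to 5 without 1 array. Of 30 marker genes, 2 were called (again beside 3.73% of all genes tested). The count was 1 with quantile normalization, 0 when every probe was tested (9 unadjusted) and 0 to 3 without 1 array.

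With the replicate block, limma called 184 genes (2216 unadjusted), 0 other metallothioneins (2 unadjusted), 0 related genes (8 unadjusted) and 0 markers (9 unadjusted). MT1X and MT1F kept their values of -0.67 and -0.64. No untreated array correlated best with the FAC array of its own number. Of the called genes named in the text, MT4, CAVIN2, HMOX1, EGR1, RDH10 and CSF1R were refitted under all 14 alternatives, and none of these 6 changed sign. The narrower motifs TGCACNC and TGCGCNC each matched 2 times in the MT1X window. Dim genes without detection calls, such as MT1H, limit what can be seen of the family. The causes of these shifts were not tested.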
